A study of Mus musculus with 34 samples.

Results

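The serpins, a family of protease inhibitors, were followed through tracheal brushings of Gprc5a-/- mice before and after exposure to a tobacco carcinogen. The members were all rows of the knockout table whose gene symbol was Serpin followed by a clade letter from a to i and a number, which gave 63 of 24223 rows. By role these were 25 clade A genes, 12 clade B genes on chromosome 1, 15 clade B genes on chromosome 13, 3 clade E genes and 8 genes of clades C, D, F, G, H and I. Of the 63, 22 passed the filter on low counts (at least 1 CPM, a count scaled to library size, in at least 5 libraries) and could be tested, against 14847 genes of the whole table. The other 41 members are given by their counts or by an upper bound on them.

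Groups of mice lacking Gprc5a, a retinoic acid-induced receptor gene whose loss predisposes mice to lung tumours, were sampled by brushing the trachea. The exposed mice had been given NNK, a nicotine-derived nitrosamine of tobacco, by intraperitoneal injection at 50 mg/kg body weight, 3 times a week for 8 weeks. The 5 groups were baseline (Gprc5a-/-, before NNK, n = 6) and Gprc5a-/- mice at the end of exposure (t0, n = 6) and 2 months (t2, n = 5), 4 months (t4, n = 6) and 6 months (t6, n = 5) later. The deletion was thus shared by all 28 libraries, each from a different mouse, and 6 wild-type mice before exposure (Gprc5a intact) stood outside the comparisons. Ages are labelled 6 to 8 weeks in all groups, which cannot be the age at sampling of the exposed mice. Since mice left unexposed for the same months are not analysed here, time since NNK and ageing cannot be told apart.

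Serpins hold out a reactive loop that a target protease cuts, whereupon the serpin springs into a new shape and traps the enzyme in a dead complex. Clade A and most of clades C to I are secreted and act on blood clotting, complement, matrix and inflammation, while clade B serpins lack a classical signal peptide and work largely inside the cell. Some members no longer inhibit proteases at all, among them maspin (Serpinb5), the collagen chaperone HSP47 (Serpinh1) and PEDF (Serpinf1). Several clade B genes lie side by side in a cluster on mouse chromosome 1 and are known from stratified epithelia, and a second clade B cluster lies on chromosome 13.

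Library totals were 15.6 to 37.6 M estimated counts. Gprc5a, the deleted gene, was at 0.131 to 2.88 CPM of the total in 27 knockout libraries and at 8.06 CPM in t2 animal 339, against 140 to 369 CPM in the 6 wild-type libraries. That t2 library also had the fewest genes with a count (14266). Haemoglobin transcripts made up 22.8% of the counts of t0 animal 357, 25.5% of t4 animal 371 and 15.3% of t6 animal 349, and t0 animal 359 lay apart from its group in several serpins. Results were recomputed without these 5 libraries, and some of the values that moved are given where they occur. Animal 359 is listed for its serpin values, not for haemoglobin (0.03%) or genes with a count (18394). Serpin calls gained by leaving it out therefore depend on that choice. Ciliated, club and basal cell markers were found in all groups, and skeletal muscle markers (11 genes) summed to a median of 4.73 CPM at baseline, 22.9 in t0, 213 in t2, 92 in t4 and 774 in t6. In RNA from a mixed brushing, fewer cells of a type and less RNA per cell cannot be told apart.

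At t0, 9 serpins rose and 4 fell against baseline, of 22 tested (edgeR quasi-likelihood test on all 28 libraries, adjusted p under 0.05 over 14847 genes), while 23.3% of all tested genes rose and 22.3% fell. At t2, 7 rose and 2 fell, against 11.2% and 8.73% of all genes. At t4, 7 rose and 1 fell, against 10.0% and 9.56%. At t6, 5 rose and 1 fell, against 4.54% and 4.29%. The median log2 fold change of the 22 was 0.60, 0.47, 0.44 and 0.23 at t0, t2, t4 and t6, and that of all genes 0.02, 0.02, 0.01 and -0.01. These 4 comparisons share the baseline libraries. The 5 serpins that were up at t6 were all clade B genes of chromosome 1 (Serpinb2, Serpinb5, Serpinb10, Serpinb11 and Serpinb12), and the 1 that was down was Serpinf1. Across the 5 groups, 19 of the 22 differed (F test, 56.8% of all genes), the exceptions being Serpina3f, Serpinb9 and Serpini1.

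**Figure D1:**
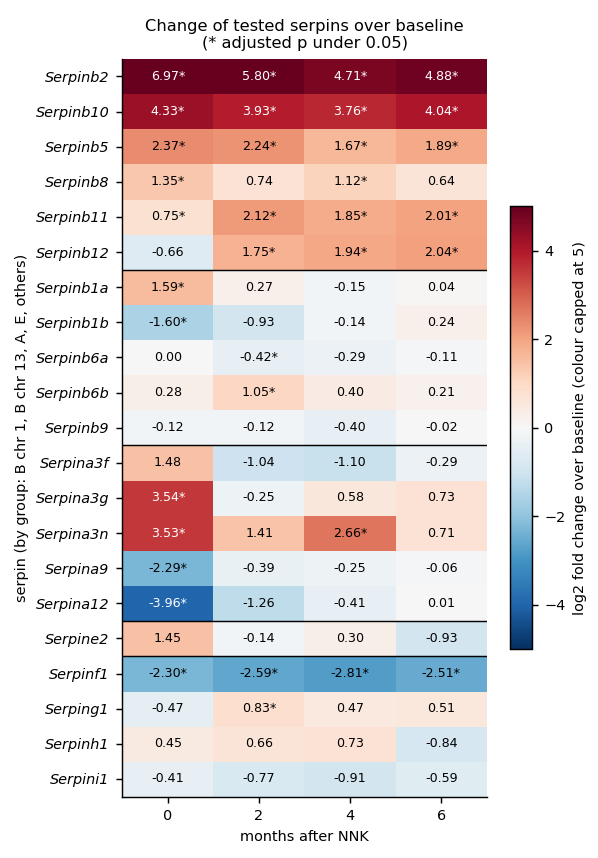
Log2 fold change over baseline (colour and number) of the tested serpins described here, in rows grouped by clade, at 0, 2, 4 and 6 months after NNK, with an asterisk for an adjusted p under 0.05 (edgeR). The top 6 rows, clade B on chromosome 1, hold all 5 of the rises called at 6 months, with Serpinb2 at 6.97, 5.80, 4.71 and 4.88.

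The exposed groups were also compared with each other. At t2 against t0, 6 serpins were higher and 4 lower, against 15.7% and 14.2% of all genes. At t6 against t0, 6 were higher and 8 lower, against 18.2% and 20.5%. A straight line over the months after exposure (22 libraries) rose for 5 members and fell for 5, against 16.3% and 16.1% of all genes. Counted without a model, every t0 library lay above every baseline library for 6 members and below for 3 (13.1% and 12.7% of all genes), and at t6 this held for 5 members above and 1 below (4.66% and 4.73%). A member that passed the filter only through a group where it is high had to differ, so these counts describe the 22 tested genes and not the family.

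The 6 tested clade B genes of chromosome 1 were the group with most rises: 5 rose in t0, 5 in t2, 6 in t4 and 5 in t6, and none fell. Of all tested genes, 23.3%, 11.2%, 10.0% and 4.54% rose at these times. Fewer than 5 of the 6 baseline libraries reached 1 CPM of Serpinb2 or Serpinb10, so both passed the filter only through exposed groups, where they are high. The untested genes of this group are not in these counts. The median log2 fold change of the 6 tested genes over baseline was 1.86 in t0, 2.18 in t2, 1.89 in t4 and 2.02 in t6. These 6 genes are shown first as sequence, because they lie near one another and share a loose pattern of letters near their start sites. The windows below are those of RefSeq on GRCm38.p6, 250 bases before to 50 bases after the start nearest to the gene's start in the count table, 5′ to 3′ on the + strand: chr1:107511173-107511472 (Serpinb2), chr1:107528753-107529052 (Serpinb10), chr1:106860925-106861224 (Serpinb5), chr1:107589756-107590055 (Serpinb8), chr1:107362064-107362363 (Serpinb11) and chr1:106934199-106934498 (Serpinb12). Capitals mark matches to TGANTCA, where N is any base. This is looser than the consensus of the AP-1 (Fos and Jun) binding motif, TGAGTCA or TGACTCA. A match to TGANTCA on one strand is also a match on the other.
Serpinb2: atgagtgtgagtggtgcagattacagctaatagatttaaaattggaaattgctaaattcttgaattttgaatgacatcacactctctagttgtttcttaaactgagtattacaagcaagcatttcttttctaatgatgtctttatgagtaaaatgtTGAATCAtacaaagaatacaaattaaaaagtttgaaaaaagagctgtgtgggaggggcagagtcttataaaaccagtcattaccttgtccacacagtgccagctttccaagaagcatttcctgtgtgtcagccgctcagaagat
Serpinb10: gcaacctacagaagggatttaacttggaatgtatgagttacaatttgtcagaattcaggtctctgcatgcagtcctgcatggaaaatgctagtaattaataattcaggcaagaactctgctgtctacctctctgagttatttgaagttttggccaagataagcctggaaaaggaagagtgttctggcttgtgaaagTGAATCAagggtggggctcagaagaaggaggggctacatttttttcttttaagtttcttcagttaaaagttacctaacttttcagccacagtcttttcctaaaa
Serpinb5: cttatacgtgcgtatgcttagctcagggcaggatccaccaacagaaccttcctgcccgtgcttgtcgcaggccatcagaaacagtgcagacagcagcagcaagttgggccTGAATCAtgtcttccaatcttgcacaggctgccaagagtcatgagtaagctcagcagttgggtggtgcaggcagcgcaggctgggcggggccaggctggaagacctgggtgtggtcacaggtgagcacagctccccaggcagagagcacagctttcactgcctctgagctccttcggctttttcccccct
Serpinb8: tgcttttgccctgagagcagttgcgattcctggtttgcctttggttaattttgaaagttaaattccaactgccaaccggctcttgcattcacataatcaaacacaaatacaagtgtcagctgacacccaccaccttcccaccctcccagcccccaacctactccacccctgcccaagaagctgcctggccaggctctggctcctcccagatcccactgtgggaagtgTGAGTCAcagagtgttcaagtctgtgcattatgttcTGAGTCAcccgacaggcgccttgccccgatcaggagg
Serpinb11: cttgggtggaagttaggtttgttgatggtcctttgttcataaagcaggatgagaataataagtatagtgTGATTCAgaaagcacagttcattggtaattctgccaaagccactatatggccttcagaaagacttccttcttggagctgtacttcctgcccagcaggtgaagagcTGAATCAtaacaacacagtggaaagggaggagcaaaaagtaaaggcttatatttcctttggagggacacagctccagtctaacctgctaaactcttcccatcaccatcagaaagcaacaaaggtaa
Serpinb12: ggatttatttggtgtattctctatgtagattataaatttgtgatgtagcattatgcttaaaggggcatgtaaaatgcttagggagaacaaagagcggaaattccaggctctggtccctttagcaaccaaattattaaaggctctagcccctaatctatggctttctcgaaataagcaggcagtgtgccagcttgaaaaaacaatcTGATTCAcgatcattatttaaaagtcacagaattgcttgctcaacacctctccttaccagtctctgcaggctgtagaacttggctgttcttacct

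TGANTCA was present in the windows of all 6 of these genes, with 1 match in Serpinb2, Serpinb10, Serpinb5 and Serpinb12 and 2 in Serpinb11 and Serpinb8. It was present in 0 of the 12 windows found for other tested serpins, and in 7.81% of the 32851 windows of all genes. Of 34 windows of untested members 5 held it, those of Serpinb7 on chromosome 1 and of the near-identical clade A copies Serpina1a, Serpina1b, Serpina1c and Serpina1d. Counting the start site as +1, the match began at position -94 in Serpinb2, -54 in Serpinb10, -140 in Serpinb5, -45 in Serpinb12, -181 and -76 in Serpinb11, and -23 and 14 in Serpinb8. The second RefSeq windows of Serpinb2 and Serpinb12 brought the count to 7 of 8 windows. Serpinb2 also had TATAAA at position -29, letters that 13.6% of all windows hold on either strand, whereas the CRE letters TGACGTCA were in 0 of the 52 serpin windows and in 1.79% of all windows. Among the 6 genes only Serpinb8 held the consensus form TGAGTCA. Matches in Serpinb2, Serpinb10, Serpinb5, Serpinb11 and Serpinb12 were TGAATCA or TGATTCA. Of the untested members, Serpinb7 held TGAGTCA and the Serpina1 copies TGACTCA. The contrast with the other tested serpins thus rests on the looser pattern, and the share of all windows with TGAGTCA or TGACTCA was not counted. The motifs were chosen with the changes of these genes known, and a match in letters is not a measured binding site.

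Serpinb2 encodes plasminogen activator inhibitor type 2, which inhibits urokinase and tissue plasminogen activator and is made by keratinocytes and activated macrophages. In the table it spans chr1:107511423-107525601 (mm10). Its level at baseline was 0.145 to 2.17 CPM (median 0.799, n = 6). At t0 it was 66.9 to 167 CPM (median 112, n = 6), all far above the highest baseline library. At t2 the 5 libraries had 59.6, 75.6, 46.4, 67.6 and 9.12 CPM. At t4 the range was 13.3 to 43.9 CPM (median 18.4, n = 6), and at t6 the 5 libraries had 11.5, 39.3, 38.1, 3.75 and 44.5 CPM. No exposed library at any time overlapped the baseline libraries, and the lowest exposed value, 3.75 CPM in t6 animal 366, was still above the highest baseline value of 2.17 CPM.

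Against baseline, Serpinb2 rose by a log2 fold change of 6.97 in t0 (SE 0.66, adjusted p = 1.2e-08, edgeR), 5.80 in t2 (SE 0.64, 3.8e-06), 4.71 in t4 (SE 0.62, 1.5e-05) and 4.88 in t6 (SE 0.63, 2e-05). Its baseline level was near the floor, and with limma on log2(CPM + 1) these changes were smaller, at 5.96, 4.58, 3.68 and 3.54. Serpinb2 also came down after exposure ended. At t6 it was lower than at t0 by a log2 fold change of -2.08 (SE 0.55, adjusted p = 0.0037), with no overlap between the t6 and t0 libraries, and its line over the months had a slope of -0.36 log2 units per month (SE 0.08, adjusted p = 0.0014). The difference between t2 and t0 was not called (-1.17, SE 0.53, adjusted p = 0.097), and the t2 libraries overlapped those of t0. Per kilobase of gene length, Serpinb2 was the 19th of the 22 tested serpins at baseline (0.555 CPM per kb), 3rd in t0 (69.5), 7th in t2 (30.9), 12th in t4 (14.5) and 10th in t6 (16.4). It made up 0.111% of the summed CPM per kb of the 22 serpins at baseline, 11.1% at t0 and 2.54% at t6.

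**Figure D2:**
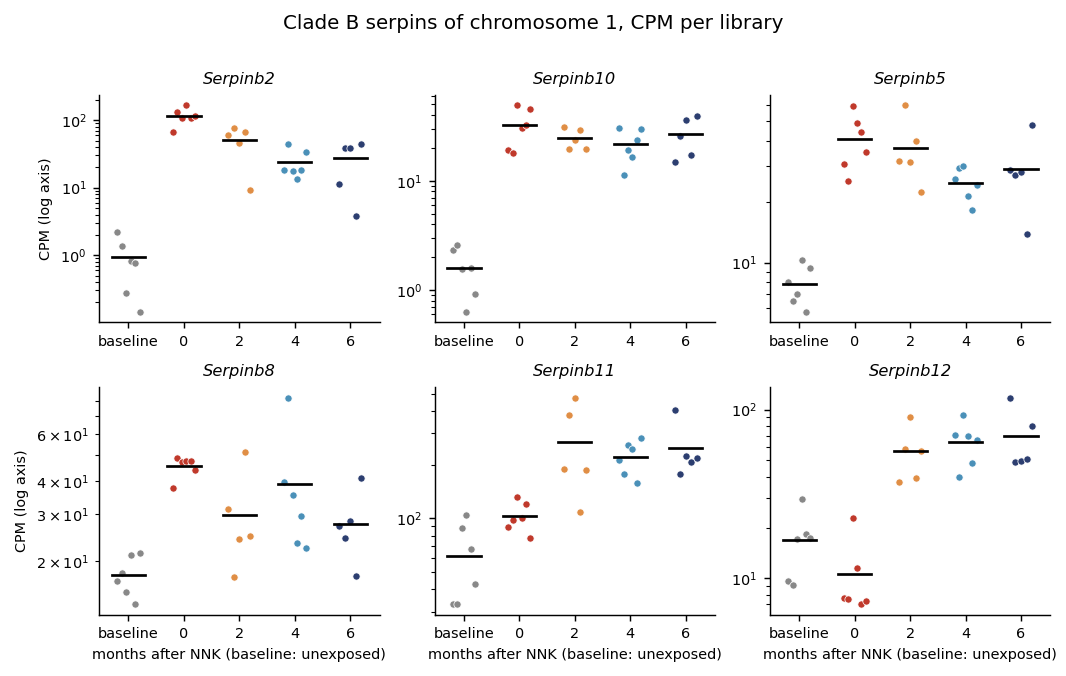
CPM per library (points, log axis) of the 6 tested clade B serpins of chromosome 1 at baseline and at 0, 2, 4 and 6 months after NNK, with the group mean as a bar. Serpinb2 libraries lay at 66.9 to 167 CPM at 0 months and at 0.145 to 2.17 CPM at baseline, and in Serpinb12 the 0-month points lie below those of 2, 4 and 6 months.

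Serpinb10 (bomapin, known in humans from myeloid cells) starts 17.6 kb after the start of Serpinb2 and moved with the next largest change. It had 0.631 to 2.6 CPM at baseline (median 1.57), 18 to 49.2 at t0 (median 31.3), 30.9, 19.7, 23.6, 29.4 and 19.4 in the t2 libraries, 11.4 to 30.7 at t4 (median 21.2), and 14.9, 25.8, 35.8, 17.3 and 39.2 in the t6 libraries. All exposed libraries lay above all baseline libraries. The log2 fold change over baseline was 4.33, 3.93, 3.76 and 4.04 at t0, t2, t4 and t6, with adjusted p (edgeR) of 6.6e-10, 8.4e-08, 1e-07 and 9.5e-08. With limma on log2(CPM + 1) these changes were 3.64, 3.33, 3.11 and 3.37. Unlike the Serpinb2 contrast, t6 against t0 was not called for Serpinb10 (-0.28, SE 0.32, adjusted p = 0.51), and whether both genes differ in this was not tested. In the GENCODE M21 annotation Serpinb2 and Serpinb10 overlap on the same strand and Serpinb10 is listed as a polymorphic pseudogene. The rows of the count table do not overlap, and how reads in the shared stretch were assigned is not given in the sources used here.

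Serpinb5 encodes maspin, a serpin without protease inhibitory activity that basal and myoepithelial cells express. It had 5.72 to 10.3 CPM at baseline (median 7.54), 25.4 to 59.5 at t0 (median 39.7), 31.7, 60, 31.6, 39.7 and 22.3 in the t2 libraries, 18.3 to 29.9 at t4 (median 25.1), and 28.6, 27, 28, 13.9 and 47.9 in the t6 libraries. Every exposed library exceeded every baseline library here too. The log2 fold change over baseline was 2.37 in t0 (SE 0.26, adjusted p = 5.6e-08, edgeR), 2.24 in t2 (4.1e-06), 1.67 in t4 (5.9e-05) and 1.89 in t6 (3e-05). The difference between t6 and t0 was -0.48 (adjusted p = 0.14), or past the threshold without t6 animal 368, the highest of its group (adjusted p = 0.026).

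Serpinb11 (epipin) and Serpinb12 (yukopin, an inhibitor of trypsin-like proteases) had the later rises. Serpinb11 averaged 61.4 ± 30.1 CPM at baseline, and 103 ± 20, 267 ± 153, 221 ± 47.8 and 246 ± 91.3 CPM in the t0, t2, t4 and t6 groups (SD). The t0 libraries overlapped the baseline ones, and those of t2, t4 and t6 did not. The log2 fold change was 2.12 in t2 (SE 0.33, adjusted p = 0.0001, edgeR), 1.85 in t4 (0.00022) and 2.01 in t6 (0.00022), and the rise in t0 (0.75, SE 0.31, adjusted p = 0.048) lost its call in 20 of 39 alternatives. Serpinb11 was higher at t2 than at t0 (1.38, adjusted p = 0.0017) and higher at t6 than at t0 (1.26, adjusted p = 0.0028).

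Serpinb12 had 9.1 to 29.7 CPM at baseline (median 17.2), 7.02 to 22.7 at t0 (median 7.59), 37.3, 58.3, 90.9, 39.6 and 56.6 in the t2 libraries, 39.7 to 92.4 at t4 (median 67.9), and 118, 48.8, 49.9, 50.8 and 79.9 in the t6 libraries. All libraries of t2, t4 and t6 lay above all libraries of t0 and of baseline. Its change at t0 was not called (-0.66, SE 0.32, adjusted p = 0.097), and without t0 animal 359, which alone had 22.7 CPM, it was called lower (adjusted p = 0.006). It rose by 1.75 in t2 (SE 0.34, adjusted p = 0.00089, edgeR), 1.94 in t4 (0.00021) and 2.04 in t6 (0.00026). Against t0 it was higher at t2 (2.41, adjusted p = 7e-06) and at t6 (2.7, SE 0.35, adjusted p = 1.2e-06), with a slope of 0.42 log2 units per month (SE 0.09, adjusted p = 0.0016), while the slope of Serpinb2 was -0.36.

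Serpinb8 (cytoplasmic antiproteinase 2, which in humans inhibits furin) had a smaller change. It averaged 17.8 ± 3.07 CPM at baseline, and 45.4 ± 4.14, 29.8 ± 12.9, 38.9 ± 22.3 and 27.7 ± 8.5 CPM in the t0, t2, t4 and t6 groups (SD). The t0 and t4 libraries lay above all baseline libraries, and the t2 and t6 libraries overlapped them. It rose by 1.35 at t0 (SE 0.26, adjusted p = 0.00015, edgeR) and by 1.12 at t4 (SE 0.26, adjusted p = 0.0038), or 0.76 without t4 animal 336, which had 82.3 CPM (adjusted p = 0.017). It was not called at t2 (0.74, adjusted p = 0.053) or t6 (0.64, adjusted p = 0.15). It was lower at t6 than at t0 (-0.71, SE 0.27, adjusted p = 0.04), a call lost in 12 of 39 alternatives.

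**Figure D3:**
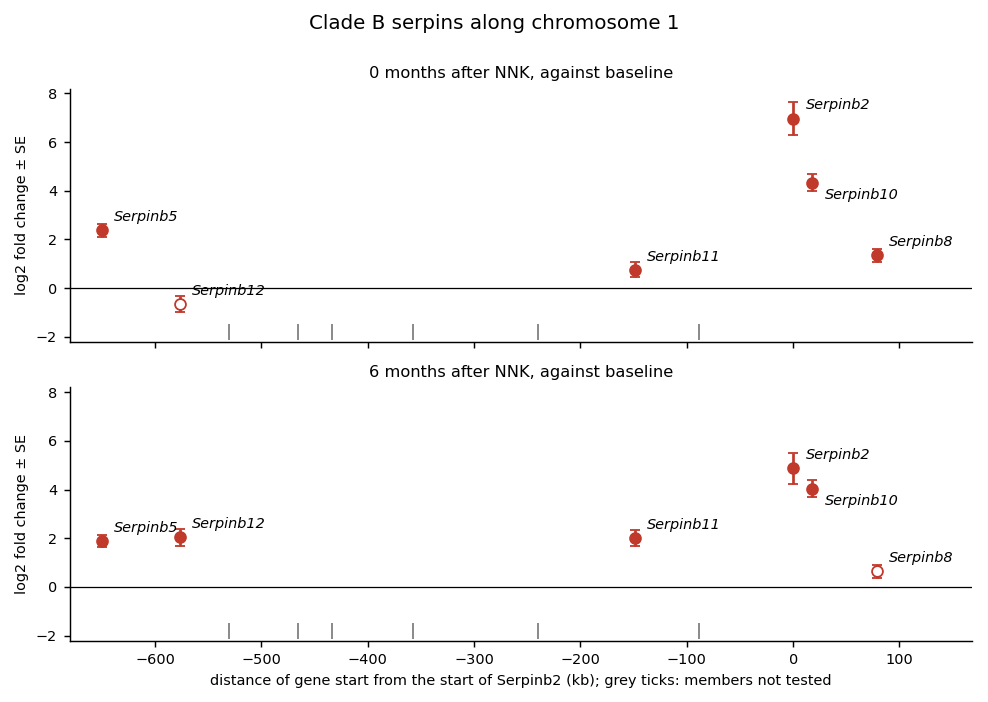
Log2 fold change over baseline with its standard error for the clade B serpins along chromosome 1, by distance of each gene's start from that of Serpinb2 in kb, at 0 months (top) and 6 months (bottom). Filled points had an adjusted p under 0.05, open points did not, and grey ticks mark the 6 untested members. The 2 largest changes at each time are those of Serpinb2 and its neighbour Serpinb10.

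The other 6 clade B genes of chromosome 1 were below the filter, and the counts of 3 of them are given because they were not spread evenly over the groups. Serpinb7 (megsin) had 3 counts in the 6 baseline libraries together, 68 in t0, 28 in t2, 24 in t4 and 58 in t6, and was found in all t0 and all t6 libraries. Serpinb3a, a mouse relative of the human squamous cell carcinoma antigens, had 1 count at baseline, 41 in t0 in 5 of 6 libraries, 0 in t2, 0 in t4 and 1 in t6. Serpinb3c had 0 counts at baseline, 2 in t0, 16 in t2, 16 in t4 and 31 in t6, where all 5 libraries had some. Serpinb3a counts were thus mostly at t0, and those of Serpinb3c mostly later. None was tested, and the Serpinb3 copies are near-identical genes between which reads may be shared. Serpinb13, Serpinb3b and Serpinb3d had at most 7 counts in any group.

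Markers of squamous epithelium moved in the same samples. Of 20 squamous markers, none of them a serpin, 15 were tested, and 11 rose in t0, 8 in t2, 6 in t4 and 5 in t6, with none lower, and with medians of 3.46, 2.08, 1.52 and 0.50 on the log2 scale. Their summed level was 139 to 381 CPM at baseline (median 169), 1822 to 4780 in t0 (3879), 552 to 980 in t2 (910), 337 to 1018 in t4 (541) and 348 to 780 in t6 (718). Sprr1b and Krtdap had no count at baseline, and among the exposed groups Sprr1b had counts only in the t2 group and Krtdap had none there. Of 12 basal cell markers, 9 rose in t0, 6 in t2, 4 in t4 and 1 in t6, and 0, 1, 2 and 1 fell. The t2 library with the lowest Serpinb2 (animal 360, 9.12 CPM) and the t6 library with the lowest (animal 366, 3.75 CPM) also had the lowest squamous sums of their groups, 552 and 348 CPM. This did not hold in t0, where animal 332 had the lowest Serpinb2 (66.9 CPM) with a sum of 4034 CPM, or in t4, where animal 348 had the lowest (13.3 CPM) and animal 335 the lowest sum. The part of squamous or basal cells in the serpin changes was not tested.

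Over the 28 libraries, which share their depth and group structure, the 5 genes outside the family whose log2(CPM + 1) was most like that of Serpinb2 were Ecm1 (Pearson r = 0.946), Krt14 (0.930), Arap2 (0.927), Dsg3 (0.917) and Scel (0.916). Krt14 encodes a keratin of basal cells, Dsg3 a desmosomal cadherin, and Scel and Ecm1 proteins known from the skin. Ecm1 averaged 16 CPM at baseline, 960 in t0, 251 in t2, 233 in t4 and 170 in t6. Within the family, Serpinb5 had r = 0.92 (6th of all genes) and Serpinb10 r = 0.88 (21st), then Serpinb8 with 0.74, while Serpinb11 had 0.41 and Serpinb12 -0.01. The lowest among the serpins was Serpinf1 with -0.72. Krt14 and Dsg3 are also on the basal and squamous lists.

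Serpinb1a, Serpinb1b, Serpinb6a, Serpinb6b and Serpinb9 were the 5 tested clade B genes of chromosome 13, out of 15. Serpinb1a encodes an inhibitor of neutrophil elastase and related proteases. It had 20.8 to 37.6 CPM at baseline (median 28.8), 48.9 to 162 at t0 (median 77.9), 39.1, 40.6, 32.1, 41.2 and 22.9 in the t2 libraries, 19.5 to 33 at t4 (median 26.7), and 25.3, 26.1, 29.7, 20.9 and 47.8 in the t6 libraries. All t0 libraries were above all libraries of the other 4 groups. It rose by 1.59 at t0 (SE 0.25, adjusted p = 1e-05, edgeR), and its changes at t2, t4 and t6 were 0.27, -0.15 and 0.04 (adjusted p of 0.48, 0.71 and 0.95). At t6 it was lower than at t0 by -1.55 (SE 0.27, adjusted p = 4.3e-05). The summed level of 7 neutrophil markers was 22.4 to 160 CPM at t0 (median 51.6) and 2.63 to 169 CPM at baseline (median 7.29). Of these 7 markers, 0 were called higher and 0 lower at t0. The part of neutrophils in the Serpinb1a rise was not tested.

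Its paralog Serpinb1b went the other way at t0. It had 5.64 to 9.27 CPM at baseline (median 7.76), 0.946 to 6.43 at t0 (median 1.92), 2.97, 1.97, 7.57, 2.38 and 4.96 in the t2 libraries, 3.39 to 10.5 at t4 (median 6.95), and 6.95, 7.1, 10.9, 9.35 and 10.3 in the t6 libraries. In 5 of 6 t0 libraries it was below all baseline libraries, the exception being animal 359. It fell by a log2 fold change of -1.60 at t0 (SE 0.37, adjusted p = 0.00094, edgeR) and was higher at t6 than at t0 by 1.84 (SE 0.39, adjusted p = 0.00042). At t2 against t0 it was not called (0.67, adjusted p = 0.19), but was called higher in both alternatives without animal 359 (lowest adjusted p = 0.005). Both copies are similar genes between which reads may be shared, so the split between them is uncertain. Their values were not whole in 100% and 96.4% of the libraries with a count, but so were those of Serpinh1 in 64.3%.

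Serpinb6b had 24.8 to 38.3 CPM at baseline (median 31.4), 28.1 to 61.2 at t0 (median 33.4), 58.8, 98.7, 61.2, 50.7 and 50.6 in the t2 libraries, 16.9 to 50.8 at t4 (median 44.4), and 41.7, 36.4, 34.4, 27.6 and 39.2 in the t6 libraries. Only at t2 did all libraries lie above those of baseline, and there it rose by 1.05 (SE 0.23, adjusted p = 0.0021, edgeR). Serpinb6a, whose human relative inhibits cathepsin G, was the serpin with the second highest level per kilobase at baseline. It averaged 159 ± 29.5 CPM at baseline, 160 ± 30.3 in t0, 119 ± 16.6 in t2, 130 ± 14.9 in t4 and 148 ± 18.3 in t6 (SD), and its fall in t2 (-0.42, adjusted p = 0.031) lost its call in 7 of 39 alternatives. Serpinb9, known as an inhibitor of granzyme B, averaged 20.2 to 26.6 CPM in the 5 groups (F test, adjusted p = 0.39). Values of Serpinb6a and Serpinb6b were also mostly not whole. The other 10 genes of this cluster had at most 76 counts in any group.

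In clade A, 5 of 25 genes were tested, and 2 rose and 2 fell at t0. Serpina9 (centerin, known in humans from germinal centre B cells) had 73.2 to 129 CPM at baseline (median 106), 8.17 to 42.9 at t0 (median 15.2), 76.9, 87.9, 66.8, 58 and 110 in the t2 libraries, 41 to 150 at t4 (median 73.4), and 77.8, 91.3, 115, 118 and 99.4 in the t6 libraries. Every t0 library was below every baseline, t2 and t6 library. It fell by -2.29 at t0 (SE 0.34, adjusted p = 5.3e-06, edgeR), and its changes at t2, t4 and t6 were -0.39, -0.25 and -0.06 (adjusted p of 0.45, 0.63 and 0.95). At t6 it was higher than at t0 by 2.24 (SE 0.35, adjusted p = 1.4e-05). Ciliated cell markers fell in t0 in 10 of 10 genes, with 0 lower in t2, t4 and t6, and their summed level had a median of 4232 CPM at baseline, 1469 in t0, 4698 in t2, 5631 in t4 and 4478 in t6. Of 10 club cell markers, 9 fell and 1 rose in t0, and of 12 goblet and gland markers, 7 fell and 1 rose there. The goblet and gland sum was 13317 to 20516 CPM in t0, against 91012 to 177773 CPM at baseline. Whether any of these cells bear on Serpina9 was not tested.

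Serpina12 (vaspin, which inhibits kallikrein 7) followed at a far lower level. It had 0.348 to 2.85 CPM at baseline (median 0.645), 0 to 0.193 at t0 (median 0), 0.494, 0, 0.964, 0.223 and 0.487 in the t2 libraries, 0.327 to 1.79 at t4 (median 0.501), and 0.579, 0.704, 1.11, 1.1 and 1.75 in the t6 libraries. The t0 libraries did not overlap those of baseline or t6, and 4 of 6 had no count. It fell at t0 (-3.96, SE 0.87, adjusted p = 0.00056, edgeR), and the size of this change depended on the few counts, being -5.0 without t0 animal 359, -3.34 without baseline animal 344 and -7.74 without the 5 libraries named above, and -0.85 and -2.7 with limma on log2(CPM + 1) and log2(CPM + 0.1). It kept its call in all 37 alternatives.

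Serpina3n and Serpina3g belong to the mouse copies of the antichymotrypsin gene, and both are known to be induced in inflammation. Serpina3n had 1 to 3.19 CPM at baseline (median 1.56), 2.32 to 57.5 at t0 (median 5.96), 3.92, 6.99, 1.34, 5.05 and 6.29 in the t2 libraries, 1.09 to 30.6 at t4 (median 2.79), and 1.66, 3.77, 2.77, 3.9 and 2.44 in the t6 libraries. Few mice were high: t0 animals 374 and 375 had 57.5 and 47.9 CPM, t4 animals 371 and 377 had 30.6 and 29.2 CPM, and all others had at most 6.99 CPM. It rose at t0 (3.53, SE 0.86, adjusted p = 0.0015, edgeR), and by 2.9 without animal 374. The rise at t4 (2.66, adjusted p = 0.025) lost its call in 7 of 39 alternatives, being 2.07 without animal 371, 2.06 without the 5 libraries named above, and 1.22 and 1.42 with limma on log2(CPM + 1) and log2(CPM + 0.1). It was also lost without t4 animal 377 and without baseline animal 343 or 356.

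Serpina3g (Spi2A, an inhibitor of lysosomal cathepsins) had 0.437 to 3.62 CPM at baseline (median 0.598), 1.8 to 61.1 at t0 (median 7.1), 3.69, 0, 0.62, 0.706 and 0.753 in the t2 libraries, 1.18 to 2.7 at t4 (median 2.25), and 1.74, 1.62, 1.97, 1.77 and 4.25 in the t6 libraries. The t0 libraries were high as a group but overlapped baseline, and animal 375 was far above the rest. It rose by 3.54 at t0 (SE 0.82, adjusted p = 0.00097, edgeR), or 2.34 without animal 375, and was lower at t6 than at t0 (-2.81, adjusted p = 0.01), a call that was lost without animal 375 (-1.61, adjusted p = 0.096). In the table the Serpina3g row begins at the start of Serpina3f, so counts of these copies are uncertain. Serpina3f was not called in the F test (adjusted p = 0.093).

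The 20 untested clade A genes included the 6 copies of Serpina1, the antitrypsin gene. Serpina1b had 29 counts over the baseline libraries, 29 in t0, 14 in t2, 256 in t4 and 31 in t6, and 180 and 65 of the t4 counts came from animals 377 and 371, the same animals that were high in Serpina3n. Serpina1a, Serpina1c and Serpina1e also had most counts in t4 (26, 47 and 22). Serpina1d instead had 128 at baseline, then 19, 47, 32 and 61. Reads may be shared between these copies. Serpina10 had 67 counts at baseline, 150 in t0 and at most 24 later. Serpina11 had 32, 15, 54, 160 and 113 from baseline to t6. The remaining untested clade A genes had at most 64 counts in any group. Hepatocyte markers, looked at because Serpina1 is a liver gene, were near the floor, with a sum of 0 to 1.72 CPM in all libraries and 0 of 7 tested.

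**Figure D4:**
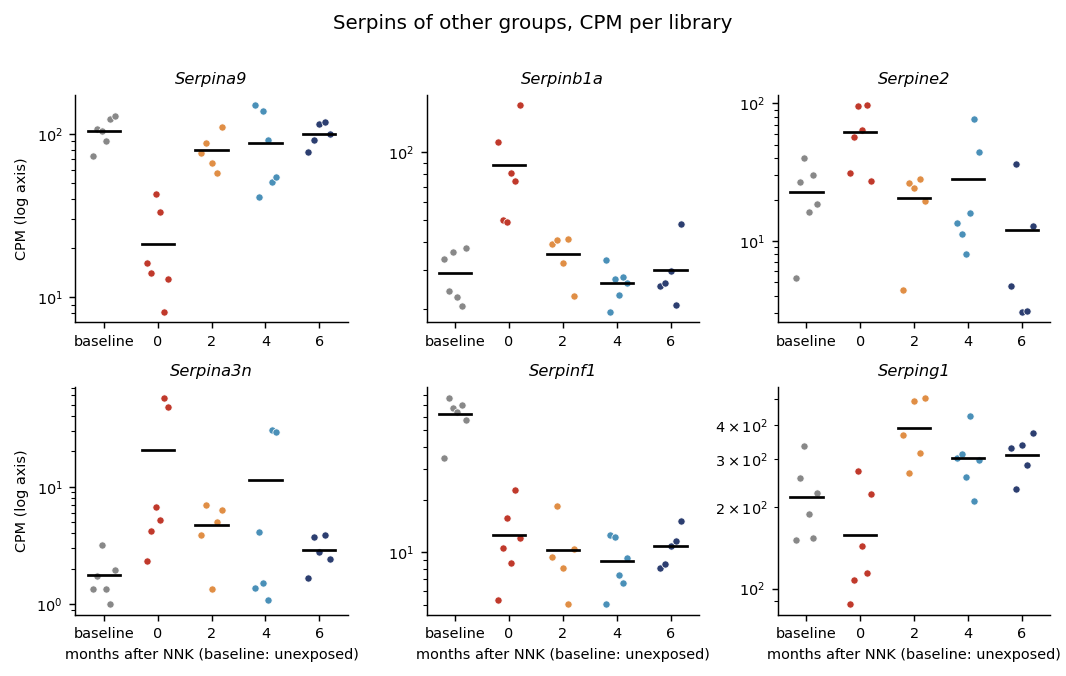
CPM per library (points, log axis) of 6 serpins outside the chromosome 1 group at baseline and at 0, 2, 4 and 6 months after NNK, with the group mean as a bar. Serpina9 and Serpinb1a were called against baseline at 0 months only, Serpina3n was high in 2 mice at 0 and 2 at 4 months, and Serpinf1 stayed below baseline at every time.

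The clade E serpins include secreted regulators of plasminogen activation and clotting. Serpine2 (protease nexin 1, an inhibitor of thrombin and plasminogen activators) had 5.41 to 39.9 CPM at baseline (median 22.6), 27.1 to 97.1 at t0 (median 60.5), 4.37, 26.5, 24.4, 28.3 and 19.4 in the t2 libraries, 8 to 76.6 at t4 (median 14.7), and 4.7, 36, 3.05, 3.11 and 12.8 in the t6 libraries. The groups overlapped, and the change at t0 was not called (1.45, SE 0.63, adjusted p = 0.062, edgeR). It was called higher in 11 of 39 alternatives, among them DESeq2, both limma fits and sex as a covariate, with log2 fold changes of 1.24 to 1.68 over all alternatives. It was lower at t6 than at t0 (-2.38, SE 0.69, adjusted p = 0.0083, edgeR), and by -3.39 without t6 animal 349, a haemoglobin-rich library. Serpine3 had at most 8 counts in any group.

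The proteases and receptors around these inhibitors were given by a list of 18 genes of plasminogen activation, with no serpin in it, of which 12 were tested. At t0, 8 rose and none fell (median log2 fold change 1.85), in t2 3 rose and 1 fell, in t4 4 rose, and in t6 1 rose. Plat (tissue plasminogen activator) averaged 26.1 ± 14.5 CPM at baseline, 198 ± 36.6 in t0, 90.3 ± 30.1 in t2, 68.1 ± 24.8 in t4 and 50.9 ± 30.9 in t6 (SD). It rose by 2.93 in t0, 1.79 in t2 and 1.38 in t4, and its change in t6 was 0.97 (adjusted p = 0.1). Lrp1, the receptor that clears protease and serpin complexes, rose at t0 (1.85, adjusted p = 5.3e-08), and S100a10, part of a plasminogen receptor, rose at t0 too (1.85, adjusted p = 1.5e-05). Of the 12 tested, 6 were lower at t6 than at t0 and none higher.

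Markers of macrophages, which can make Serpinb2 and Serpina3g, also moved at t0. Of 13 macrophage and monocyte markers in the table, all tested, 11 rose in t0, 2 in t2, 3 in t4 and 1 in t6, with none lower. Their summed level was 656 to 954 CPM at baseline, 1120 to 2092 in t0, 745 to 1319 in t2, 508 to 795 in t4 and 648 to 997 in t6. The t0 range did not overlap the baseline range, and those of t2, t4 and t6 did. The part of macrophages in the serpin changes, at t0 or later, was not tested.

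Of the 8 genes of clades C, D, F, G, H and I, 4 were tested, and Serpinf1 was the only serpin that was called lower at all 4 times. It encodes PEDF, a secreted protein that limits the growth of blood vessels. It had 34.8 to 77.2 CPM at baseline (median 65.6), 5.33 to 22.6 at t0 (median 11.3), 9.39, 18.3, 8.09, 5.02 and 10.4 in the t2 libraries, 5.06 to 12.5 at t4 (median 8.33), and 8.14, 8.51, 10.9, 11.6 and 15.1 in the t6 libraries. Every exposed library lay below every baseline library. It fell by -2.30 in t0 (SE 0.31, adjusted p = 1.1e-06, edgeR), -2.59 in t2 (1.1e-05), -2.81 in t4 (1.6e-06) and -2.51 in t6 (2.2e-05), with no difference called between t6 and t0 (-0.20, SE 0.31, adjusted p = 0.64). Per kilobase it was 13th to 14th of the 22 serpins in the exposed groups and 3rd at baseline.

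Fibroblast markers were set beside Serpinf1, since stromal cells make much PEDF. Of 9 tested, 0 fell in t0, 2 in t2, 4 in t4 and 1 in t6, and their summed level overlapped baseline in all 4 groups, at 105 to 339 CPM at baseline, 105 to 272 in t0, 70.5 to 243 in t2, 41.3 to 149 in t4 and 66.1 to 271 in t6. Of 10 club cell markers, 9 fell and 1 rose in t0, and 6, 9 and 6 fell in the t2, t4 and t6 groups, and their sums were 81273 to 119490 CPM at baseline, 24464 to 39107 in t0, 40963 to 65084 in t2, 37131 to 65602 in t4 and 32362 to 76592 in t6. The part of club cells or fibroblasts in the Serpinf1 change was not tested.

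Serping1 encodes the C1 inhibitor, which blocks the first complement proteases and plasma kallikrein, and had the highest level per kilobase of the tested serpins at baseline (128 CPM per kb). It had 151 to 337 CPM at baseline (median 207), 87.6 to 272 at t0 (median 129), 368, 266, 492, 317 and 507 in the t2 libraries, 210 to 435 at t4 (median 301), and 329, 234, 339, 285 and 375 in the t6 libraries. The t2, t4 and t6 libraries overlapped both baseline and t0. It was higher at t2 than at t0 (1.3, SE 0.26, adjusted p = 0.00031, edgeR) and higher at t6 than at t0 (0.98, SE 0.26, adjusted p = 0.0034). Against baseline it rose at t2 (0.83, adjusted p = 0.023), which did not hold in 3 of 39 alternatives, each leaving out 1 library. Its change at t0 against baseline was not called (-0.47, adjusted p = 0.12), but was called lower in both alternatives without t0 animal 359 (lowest adjusted p = 0.017).

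Serpinh1 (HSP47), a collagen chaperone of the endoplasmic reticulum, had 58.9 to 131 CPM at baseline (median 84.7), 95.1 to 164 at t0 (median 123), 237, 64.5, 92.2, 224 and 103 in the t2 libraries, 62.4 to 453 at t4 (median 102), and 38.6, 57.9, 45.8, 50.7 and 62.5 in the t6 libraries. The t6 libraries were all below the t0 libraries (-1.29, SE 0.39, adjusted p = 0.011, edgeR). Its change at t6 against baseline was not called (-0.84, adjusted p = 0.19), except without t4 animal 336, which had 453 CPM (adjusted p = 0.011), and in a fit of the compared groups alone. Serpini1 (neuroserpin) averaged 0.639 to 1.21 CPM and was not called. The untested Serpinc1 (antithrombin), Serpind1 (heparin cofactor II), Serpinf2 (antiplasmin) and Serpini2 had at most 74 counts in any group.

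Other protease and inhibitor groups were described for comparison. At t0, t2, t4 and t6, 23.3%, 11.2%, 10.0% and 4.54% of all tested genes rose. The shares that fell were 22.3%, 8.73%, 9.56% and 4.29%. Of 12 cathepsins tested, 9 rose in t0, 2 in t2, 3 in t4 and 1 in t6, and Ctsd averaged 534 CPM at baseline, 2581 in t0, 863 in t2, 887 in t4 and 772 in t6. Of 17 epithelial serine proteases tested, 7 rose and 2 fell in t0, 4 and 0 in t2, 4 and 2 in t4, and 2 and 0 in t6. Prss27, one of them, rose at all 4 times, by 6.39, 2.69, 3.06 and 3.74. Of 18 protease inhibitors outside the family, 10 rose and 3 fell in t0, 6 and 1 in t2, 5 and 1 in t4, and 5 and 2 in t6. Among these Itih2, a heavy chain of the inter-alpha-trypsin inhibitors, fell at all 4 times like Serpinf1, by -2.72, -2.54, -2.98 and -2.65.

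The order of the serpins by level was read only per length. At baseline in knockout mice it began with Serping1 (128 ± 41.6 CPM per kb), Serpinb6a (108), Serpinf1 (64.1), Serpinh1 (46.9), Serpina9 (31.5) and Serpinb11 (30.7). In wild-type mice before exposure, as deposited in TPM, the share of transcripts corrected for length, it began with Serpinb6a (86.4 ± 25.5), Serping1 (61.8 ± 19.4), Serpinh1 (49.2 ± 11.5), Serpinf1 (44 ± 22), Serpina9 (28.6 ± 14.4) and Serpinb11 (20.5 ± 18.1, SD, n = 6). Neighbours in the wild-type order differed by less than the larger SD of each pair. In the knockout order this held for Serping1 with Serpinb6a and for Serpina9 with Serpinb11, but not for the pairs between them. Serpinb2 had 0.06 to 11.9 TPM in wild-type mice (median 0.56, n = 6), and 1 of these unexposed mice, animal 289, held the 11.9. The same mouse had the highest wild-type values of Serpinb10 (3.69 TPM), Serpinb12 (21.4), Serpinb11 (56.5) and Serpinb5 (5.49). It was not the highest in Serpinb8 (9.29 TPM, with 11.9 in animal 450). Outside the chromosome 1 group it was highest in some serpins, such as Serpine2 (10.4 TPM), and not in others, such as Serpina9 (20.8 TPM). Both sources were processed separately, so no test was run between genotypes.

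**Figure D5:**
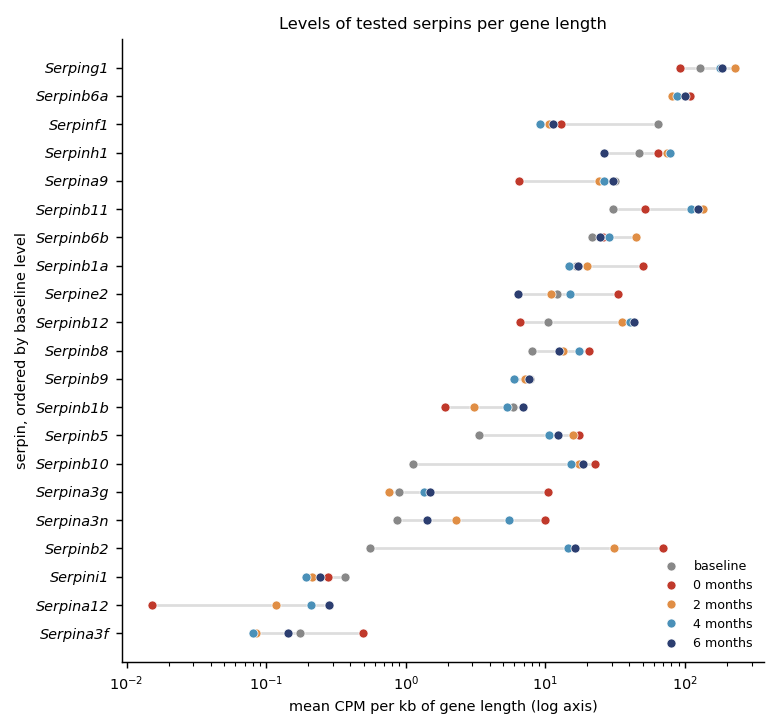
Mean CPM per kb of gene length (log axis) of the tested serpins described here, ordered by baseline level with the highest on top, with 1 point for each of the 5 groups. Serpinb2 is at 69.5 CPM per kb at 0 months and 0.555 at baseline, and all exposed groups of Serpinf1 lie left of its baseline point.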

How the data were processed

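Tracheal brushings were profiled by RNA-seq in 28 Gprc5a-/- mice and 6 wild-type mice. The knockout values were treated as estimated counts per gene because the deposited values are mostly whole (76.2% of those above 0.01, within 0.01) and sum to different library totals, although the deposited table is named RPKM, and the submitters' processing notes name mm10, STAR 2.4.1d, Bowtie2 2.1.0 and Partek. The wild-type values are TPM and estimated counts from RSEM 1.3.1, per the file headers, with STAR 2.7.0f and GRCm38 in the submitters' processing notes. All per-sample columns matched a sample. Of the gene symbols, 27 had been turned into dates. Counts were rounded to whole numbers, filtered (1 CPM in 5 libraries), scaled by TMM and tested with the edgeR 4.0.16 quasi-likelihood test (R 4.3.3) on all 28 libraries in 5 groups, p-values being adjusted by Benjamini-Hochberg over the 14847 genes tested and read at 0.05. A straight line over months used the 22 exposed libraries. The scripts were tested on simulated data. CPM per kb uses the gene lengths of the deposited wild-type files. CPM in the text are computed on TMM-scaled totals. Alternatives were RLE factors, library totals alone, other filters, DESeq2 1.42.0, limma 3.58.1, sex as a covariate (12 males), haemoglobin genes and Rn45s left out, 5 libraries left out, the compared groups alone, and each library left out. Tables and figures used Python 3.11.15, pandas 2.3.3, numpy 2.4.6 and matplotlib 3.10.9. Each library came from a different mouse.

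The members and the gene lists were chosen with earlier results of these data known. The tested members are named, except 1 that is counted but not reported here. Full values go to Serpinb2 and, by smallest p in the F test, to at most 4 called members of each role, and other called members are given by means or log2 changes. Of each list at most 3 genes are named, by smallest p at t0. The genes most like Serpinb2 are the 5 with the largest Pearson r.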

Additional observations from a re-analysis of the deposited data

Results flagged for a closer look

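In 11 of 95 groups of 5 or 6 libraries, examined over 19 serpins, 1 library lay farther from the rest than Dixon's 95% critical value allows. For independent groups of normally spread values, chance flags about 1 in 20. CPM need not be spread so, and the same libraries recur across the serpins, so this rate may not hold here.

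Library t0 359 stood apart from its group at the high end in 3 serpins. It had 22.7 CPM of Serpinb12, where the other 5 had 7.02 to 11.5, 6.43 CPM of Serpinb1b (others 0.946 to 2.18) and 61.2 CPM of Serpinb6b (others 28.1 to 39.8). Library t4 336 stood apart in 3 serpins as well. It had 453 CPM of Serpinh1 (others 62.4 to 111), 82.3 CPM of Serpinb8 (others 22.5 to 39.8) and, at the low end, 16.9 CPM of Serpinb6b (others 41.4 to 50.8).

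Serpina3g was set apart in 1 library of each of 3 groups, with 61.1 CPM in t0 375 (others 1.8 to 15.3), 3.69 CPM in t2 334 (others 0 to 0.753) and 4.25 CPM in t6 368 (others 1.62 to 1.97). Serpinb11 had 406 CPM in t6 341 (others 176 to 224). Serpinb6b had 98.7 CPM in t2 339 (others 50.6 to 61.2), the library with the fewest detected genes.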

How the results depend on the processing

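Of 70 calls on serpins, 57 were kept in every alternative, 13 were lost in at least 1 and 0 turned direction. Of 84 uncalled differences, 24 were called in at least 1 alternative. With no filter on low counts, 16 serpins were called at t2 against t0, where 10 were called with it, since more members were then tested. Leaving out 1 library at a time gave 12 to 14 called serpins for t0, 7 to 10 for t2, 7 to 9 for t4 and 6 to 7 for t6 against baseline, 9 to 12 for t2 against t0, 12 to 15 for t6 against t0, 18 to 19 in the F test and 8 to 12 for the line over months. Calls lost were those of Serpina12, Serpinb6a and Serpinb6b (t2 against t0), Serpina3g and Serpinb11 (line over months) and Serpina3n (t6 against t0), with those given beside their values above and 1 of a member not reported here, and the cause was not tested. No paired analysis was possible because the labels give each mouse its own number and no number is shared between groups. Serpins under about 1 CPM, such as Serpina12 and Serpini1, rest on few counts. The same holds for Serpinb2 at baseline (143 counts in 6 libraries), so the size of its changes depends on the method.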
